A study of Homo sapiens with 12 samples.

Results

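RNA made within the last hour, and total RNA, were compared between cells given the splicing inhibitor PladB and cells given the compound WX-02-23. The comparison takes 6 of the 12 libraries of the series, 3 for PladB and 3 for WX-02-23, and covers 18650 protein-coding genes, each counted once where its deposited intervals overlap. The cells of all libraries were 22Rv1, an established line from a human prostate carcinoma, edited so that they express C1111S-SF3B1, in which a serine replaces a cysteine of the splicing factor SF3B1. The labels do not say whether 1 clone or several were used. PladB was given at 10 nM and WX-02-23 at 20 µM, both for 3 h, and 4-thiouridine followed at 100 µM for 1 h. The doses differ, so the values set these treatments side by side as given and not the compounds at a matched dose. DMSO libraries, treated with the solvent and the same label, did not enter the main tests. They entered only an alternative fit of all 12 libraries and are otherwise quoted for reference. All log2 changes are PladB against WX-02-23, so that a negative value means lower in PladB.

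PladB is pladienolide B, a natural product that binds the SF3b complex and hinders recognition of the intron branch site by the U2 particle. SF3B1 is the largest SF3b subunit. WX-02-23 is known in the labels by its code name and as a stereoprobe, and the title of the series names FOXA1 beside covalent small molecules. FOXA1 is a transcription factor that opens chromatin in luminal cells of the prostate. Electrophilic compounds are known as inducers of the NRF2 pathway, in which KEAP1 releases the transcription factor NRF2 to switch on thiol and iron genes. Cells meet unfolded protein or amino acid shortage through the heat shock, integrated stress and unfolded protein responses. In the labelling method, SLAM-seq, 4-thiouridine taken into new RNA is alkylated, and sequencing then gives C at a genomic T. A read with such a change is a T>C read, and stands for RNA made during the labelling hour.

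The 6 libraries held 12331520 to 21414824 reads on coding genes, of which 1157967 to 2094108 per WX-02-23 library and 826780 to 1175503 per PladB library were T>C reads. Whether the replicates came from different cultures is not stated in the labels, so p-values cover the spread of these libraries, which may be technical. A library with no 4-thiouridine was not analysed here, and T>C reads that do not come from the label could not be subtracted. Of 10 luminal prostate markers none was at 0 reads, and their summed level was 3546 to 3685 CPM, the reads of a gene scaled to a library of standard size, in PladB libraries and 2388 to 2718 in WX-02-23 libraries. Of 14 markers of basal, fibroblast, endothelial and leukocyte cells, 7 were at 0 in all 6 libraries (KRT5, TP63, COL1A2, VWF, CDH5, CD3E and LYZ). The summed fibroblast markers ran from 21.0 to 25.3 CPM in PladB and from 11.8 to 18.99 in WX-02-23, and the neuroendocrine markers from 33.0 to 38.9 and from 21.6 to 46.2. Their part in any result was not tested. In cultures such as these, fewer cells and less RNA per cell cannot be told apart.

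T>C reads made up a smaller part of the PladB libraries. T>C reads were 9.78%, 9.39% and 9.75% of coding-gene reads in the 3 WX-02-23 libraries and 5.66%, 5.31% and 5.35% in the 3 PladB libraries. Every PladB library was thus below every WX-02-23 library, while the DMSO libraries, at 9.45% ± 0.431 (SD, n = 3), lay beside WX-02-23. The means were 9.64% ± 0.217 for WX-02-23 and 5.44% ± 0.191 for PladB (SD, n = 3), a difference of -4.20 percentage points and a ratio of 0.564. Of all T positions covered by reads, 0.811% ± 0.0156 were converted in WX-02-23 and 0.318% ± 0.00897 in PladB, a ratio of 0.392, against 0.706% ± 0.0245 in DMSO (SD, n = 3). A T>C read carried 1.99 ± 0.00992 conversions in WX-02-23, 1.38 ± 0.0310 in PladB and 1.81 ± 0.0350 in DMSO (SD, n = 3). Less new RNA and less label in each new RNA cannot be told apart here. The exact two-sided permutation p was 0.1 for each of these 3 measures, which is the smallest that 3 libraries against 3 can give, and it stayed 0.1 after adjustment over the 4 measures compared. A T>C read was found for 9806 to 10937 genes per WX-02-23 library and for 7362 to 9200 per PladB library. The share of multimapping reads moved with the treatment too, at 7.13% ± 0.151 in WX-02-23 and 8.39% ± 0.287 in PladB (SD, n = 3), and its part in the result was not tested.

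**Figure D1:**
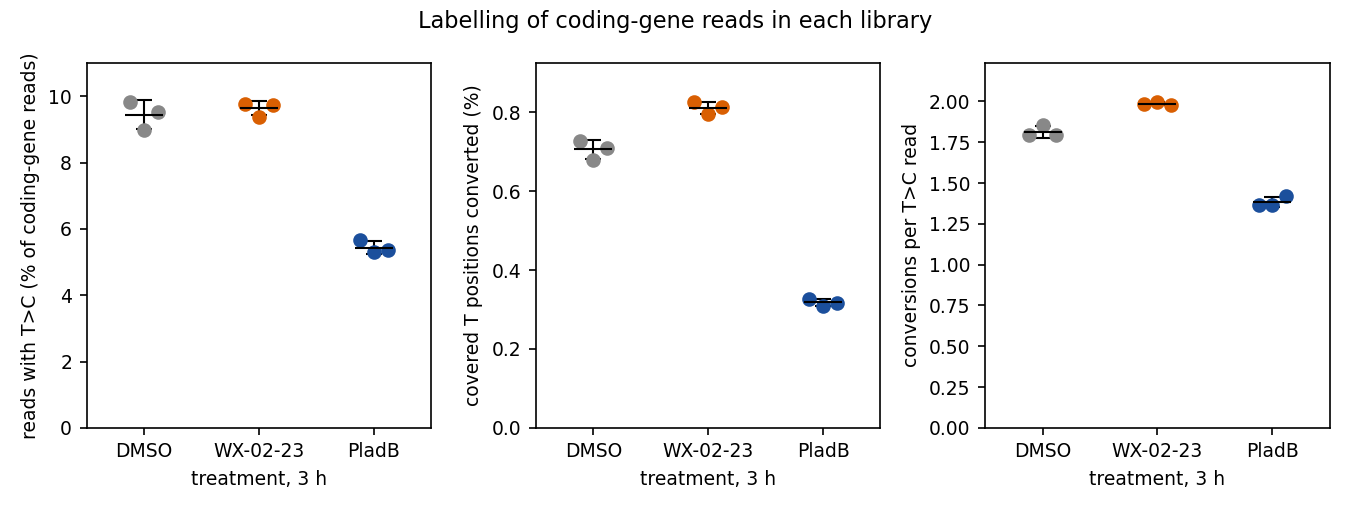
Labelling of each library by treatment: the percent of coding-gene reads with T>C, the percent of covered T positions converted, and the conversions per T>C read. Points are libraries, the bar and whiskers are the mean and SD of 3, and all axes start at 0. In each panel the 3 PladB libraries lie below the WX-02-23 and DMSO libraries.

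Across new RNA, genes of the NRF2 and integrated stress responses were lower and genes for ribosomal proteins, respiratory chain subunits and splicing regulators higher in PladB than in WX-02-23. Of 8600 genes tested by edgeR's quasi-likelihood test, 543 (6.31%) were called at a Benjamini-Hochberg adjusted p under 0.05, 351 of them higher (4.08%) and 192 lower (2.23%) in PladB. The new-RNA counts of every gene list are to be read beside these shares. At least 2-fold changes were found for 269 of the higher and 178 of the lower genes. T>C reads were scaled to each other, so a change is measured against the bulk of new RNA, and the median log2 change over all genes tested was -0.22. Scaled to all reads instead, so that the loss of T>C reads in PladB is part of the change, the median was -0.99 and 49 genes were called higher and 742 lower. DMSO levels lay nearer to WX-02-23 than to PladB for 326 of the 351 higher genes and for 174 of the 192 lower genes. The 18 lower genes with DMSO nearer to PladB included AMD1, C9orf66, CBR1, DDIT4, ELF3, FTH1, GDF15, HMOX1, IRS1, KEAP1, OSGIN1, PDK4, RND3, SLITRK6, SRXN1, TRIB3 and TXNRD1. Of the 543 calls, 184 (141 higher and 43 lower) held when each of the 6 libraries was left out in turn, and the count fell to between 225 (replicate 2) and 253 (replicate 1) when 1 WX-02-23 library was left out, with 250 for replicate 3.

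**Figure D2:**
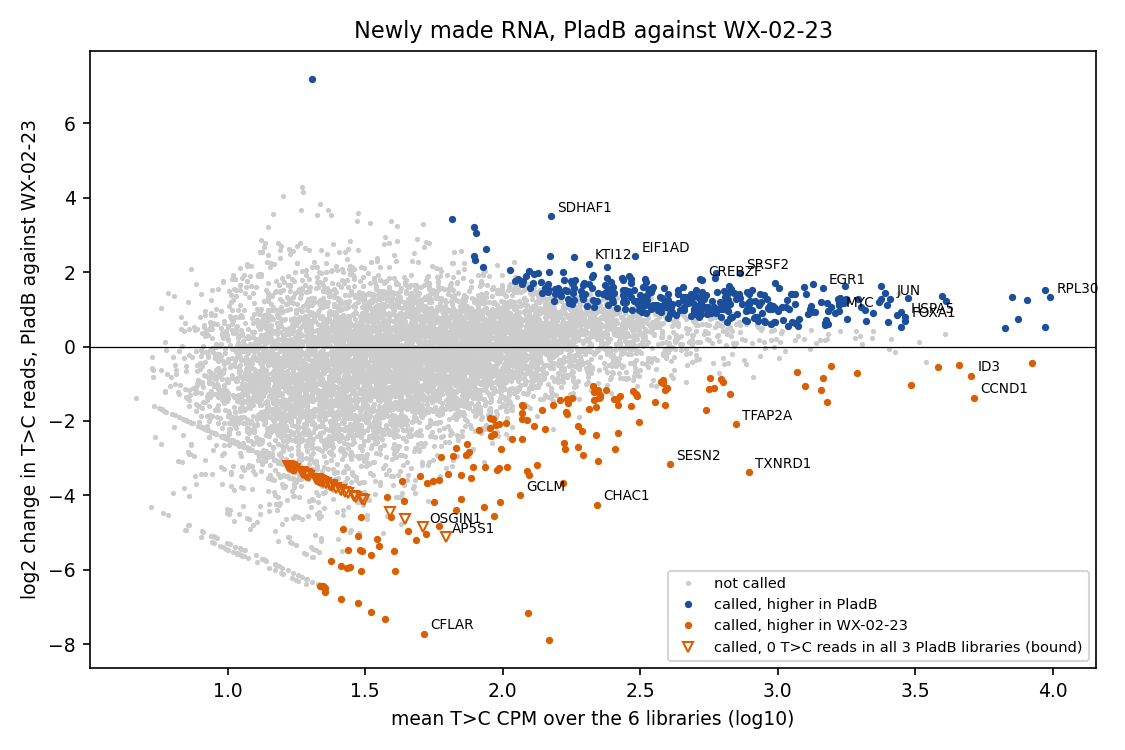
Log2 change in T>C reads, PladB against WX-02-23, over the mean T>C level of the 6 libraries (log10 CPM), with 1 point a gene. Blue and orange points are the 351 genes called higher and the 192 called lower, and open triangles are called genes with 0 T>C reads in all PladB libraries, drawn at the bound set by 3 reads per library. Stress genes such as OSGIN1, CHAC1 and TXNRD1 lie far below 0. Ribosomal protein genes such as RPL30 lie above 0 at the right-hand end.

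Genes of the NRF2 and electrophile response were lower in the new RNA of PladB cells. Of 33 genes in the list 27 were tested, 9 fell, none rose, and the median log2 change was -1.19 against -0.22 for all genes tested. For 6 of the 9, DMSO lay nearer to PladB than to WX-02-23 on the log2 scale, so that WX-02-23 stood apart from both. In WX-02-43, the other stereoprobe of the series at the same dose and time, T>C CPM were 47.8 ± 12.8 for OSGIN1 and 659 ± 70 for TXNRD1 (SD, n = 3), between DMSO and WX-02-23. Of these 9 genes, 5 (FTH1, GCLM, OSGIN1, SRXN1 and TXNRD1) kept the call with any library left out. OSGIN1, an oxidative stress response gene whose 3′ UTR interval is chr16:83999613-83999937 on the plus strand of hg19 (gene positions below are such intervals or, for a gene with several, the span from the first to the last), had 97.8, 125 and 84.5 T>C CPM in the WX-02-23 libraries and no T>C read in any PladB or DMSO library. Its T>C level was at least 28.7-fold lower in PladB against a floor of 3 reads per library (adjusted p = 0.0013), and its total RNA at least 108-fold lower, with 21.3, 25.1 and 16.7 CPM of all reads in WX-02-23 and 0 in PladB. TXNRD1, a thioredoxin reductase at chr12:104742200-104744085 on the plus strand, had 1315, 1501 and 1474 T>C CPM in the WX-02-23 libraries and 114, 215 and 83.8 in the PladB libraries. The groups lay far apart, with log2 change -3.38 (SE 0.29, adjusted p = 1.8e-05), and the DMSO mean of 241 ± 43.8 (SD, n = 3) was on the PladB side. HMOX1, the heme-degrading oxygenase at chr22:35789592-35790207 on the plus strand, had 176, 154 and 203 T>C CPM in the WX-02-23 libraries and 0.946, 0 and 22.6 in the PladB libraries. Its log2 change was -4.54 (adjusted p = 0.0134), with the call lost without any 1 of WX-02-23 replicates 1, 2 and 3 or PladB replicate 1 (adjusted p from 0.0537 to 0.0921), and in all reads the fall from 31.97 ± 2.95 to 1.99 ± 1.08 CPM (SD, n = 3) kept its call with any library left out.

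The 2 subunits of glutamate-cysteine ligase, which makes the first step of glutathione synthesis, fell as well. GCLM (chr1:94350755-94354545 on the minus strand) had 190.1, 213 and 249 T>C CPM in the WX-02-23 libraries and 22.7, 1.29 and 15.96 in the PladB libraries, with log2 change -3.99 (SE 0.67, adjusted p = 0.00247). GCLC (chr6:53362139-53363553 on the minus strand) had 83.2, 115 and 142 T>C CPM in the WX-02-23 libraries and 8.51, 2.58 and 0 in the PladB libraries, with log2 change -4.83 (SE 1.00, adjusted p = 0.0101), and its call was lost without any 1 of WX-02-23 replicates 2 and 3 (adjusted p from 0.0848 to 0.114). For both subunits every PladB library was below every WX-02-23 library, and DMSO means of 73.6 and 80.3 T>C CPM lay nearer to WX-02-23 on the log2 scale. SLC7A11, the cystine importer, had 294, 206 and 222 T>C CPM in the WX-02-23 libraries and 47.3, 0 and 30.6 in the PladB libraries and a log2 change of -3.19 (adjusted p = 0.0275), which did not hold with DESeq2 (adjusted p = 0.0732) or without any 1 of WX-02-23 replicates 1, 2 and 3 or PladB replicate 3 (adjusted p from 0.0877 to 0.158). SRXN1, a sulfiredoxin (log2 change -1.49, adjusted p = 0.00224), and KEAP1, the NRF2 inhibitor (log2 change -1.39, adjusted p = 0.0338), also fell, and the KEAP1 call was lost without any 1 of WX-02-23 replicates 1, 2 and 3 or PladB replicates 1 and 3 (adjusted p up to 0.168). In all reads 31 genes of the list were tested and 13 fell while 9 rose, among them FTH1 and FTL, which code for the ferritin chains, and the peroxiredoxin PRDX1. The ferritin heavy chain gene FTH1 had 795, 893 and 829.7 T>C CPM in the WX-02-23 libraries and 488, 379 and 427 in the PladB libraries, yet 1315, 1382 and 1265 CPM of all reads in WX-02-23 and 1916, 1907 and 1750.5 in PladB. New FTH1 RNA was thus lower (log2 change -0.96, adjusted p = 0.00532) and total FTH1 RNA higher (log2 change 0.49, adjusted p = 1.13e-05) in PladB, and 79.6% of its reads were multimapping.

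Promoter sequence is shown for the NRF2 genes because for 6 of the 9 called WX-02-23 stood apart from both PladB and DMSO. The core of the antioxidant response element, TGACNNNGC on either strand, was searched in the 250 bases before the annotated starts in RefSeq (GRCh38.p14). It was found for 6 of the 24 list members in that table and for 3 of the 6 called lower there (TXNRD1, GCLM and KEAP1), against 13.2% of 27303 genes and 16.2% of 6869 genes tested. Windows of 30 bases around the match follow, 5′ to 3′ on the strand of the gene, with the match in capitals.
TXNRD1, chr12:104215670-104215699, plus strand: acacgggctaTGACTTCGCtgttgtcaccg
TXNRD1, second annotated start, chr12:104286920-104286949, plus strand: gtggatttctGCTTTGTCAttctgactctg
GCLM, chr1:93909445-93909474, minus strand: tacgatttctGCTTAGTCAttgtcttccag
KEAP1, chr19:10502783-10502812, minus strand: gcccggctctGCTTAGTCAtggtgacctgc
The match in GCLM and the one shown for KEAP1 read GCTTAGTCA alike, the same element on the reverse strand. KEAP1 had a further match, in the window chr19:10502806-10502835, which is not shown. A match describes the letters only.

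Integrated stress response genes, the set driven by the transcription factor ATF4, were lower too. Of 20 genes 19 were tested in new RNA, 9 fell, none rose, and the median was -1.33. For 3 of the 9 (GDF15, DDIT4 and TRIB3) DMSO lay nearer to PladB. CHAC1, which degrades glutathione (chr15:41247973-41248717 on the plus strand), had 442, 327 and 485 T>C CPM in the WX-02-23 libraries and 24.6, 9.02 and 31.9 in the PladB libraries. SESN2, a sestrin that restrains the growth kinase mTORC1 (chr1:28607314-28609002 on the plus strand), had 717, 781 and 691 T>C CPM in the WX-02-23 libraries and 53.9, 74.7 and 116 in the PladB libraries. The PladB libraries of both genes lay below all WX-02-23 libraries, with log2 change -4.25 (SE 0.43, adjusted p = 5.42e-05) for CHAC1 and log2 change -3.17 (SE 0.29, adjusted p = 2.96e-05) for SESN2. DDIT4, another mTORC1 inhibitor (chr10:74034947-74035794 on the plus strand), had 464, 598 and 450.3 T>C CPM in the WX-02-23 libraries and 113, 135 and 121 in the PladB libraries. For DDIT4 the log2 change was -2.04 (SE 0.25, adjusted p = 0.000228). GDF15, a secreted stress cytokine (chr19:18499746-18499987 on the plus strand), had 2412, 2148 and 2149.9 T>C CPM in the WX-02-23 libraries and 727, 793 and 878 in the PladB libraries. For GDF15 the log2 change was -1.48 (SE 0.14, adjusted p = 3.39e-05), and the level was 759 ± 31.5 in DMSO and 1866 ± 164 in WX-02-43 (SD, n = 3). PSAT1, of serine synthesis, fell in new RNA (log2 change -2.76, adjusted p = 0.000425) and in total RNA had a log2 change of -0.21 (adjusted p = 0.115). STC2, a stanniocalcin, had no T>C read in PladB replicates 1 and 2 and 25.3 T>C CPM in replicate 3, against 144, 148 and 197 in WX-02-23, and its call (adjusted p = 0.0338) was lost with DESeq2 (adjusted p = 0.147) and without any 1 of WX-02-23 replicates 1, 2 and 3 or PladB replicate 1 (adjusted p from 0.0781 to 0.147). NUPR1, a small stress-induced chromatin protein, also fell (log2 change -3.60, adjusted p = 0.0307) and lost its call without any 1 of WX-02-23 replicates 1, 2 and 3 or PladB replicate 3 (adjusted p from 0.0762 to 0.188).

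ATF4 itself was not called in new RNA with T>C reads scaled to each other. It had 1022, 838 and 799.6 T>C CPM in the WX-02-23 libraries and 1139, 885 and 980.3 in the PladB libraries, with a log2 change of 0.18 (adjusted p = 0.677). With T>C reads scaled to all reads ATF4 was called lower, with a log2 change of -0.59 (adjusted p = 0.0467). In all reads ATF4 was lower in PladB, from 611 ± 35.4 to 311 ± 34.2 CPM (SD, n = 3). For ATF4 the log2 change was -0.97 (SE 0.09, adjusted p = 5.52e-07). In all reads 9 of the 20 list members fell and 3 rose, with a median of -0.41 against -0.06 for all genes tested. The C/EBP-ATF response element TGATGNAA, searched as above, was found for 4 of the 18 list members in the promoter table and 2 of the 8 called lower (ATF3 and CHAC1), against 3.89% of all genes and 2.17% of genes tested. Both windows are shown as examples of the called genes.
ATF3, chr1:212565205-212565234, plus strand: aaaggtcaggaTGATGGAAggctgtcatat
CHAC1, chr15:40953251-40953280, plus strand: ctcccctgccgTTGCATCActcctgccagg
CHAC1 carries the element on the reverse strand.

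Heat shock chaperones were lower in total RNA. Of 29 genes tested in all reads 12 fell and 3 rose in PladB, and for 6 of the 12 DMSO lay nearer to PladB. HSPA1A, an inducible HSP70 (chr6:31785460-31785719 on the plus strand), had 1019.9, 890.3 and 1030.5 CPM of all reads in the WX-02-23 libraries and 64.5, 60.3 and 94.3 in the PladB libraries. For HSPA1A the log2 change was -3.75 (SE 0.14, adjusted p = 4.62e-12). Its near copy HSPA1B (chr6:31797654-31798031 on the plus strand) had 1186, 1267 and 1308 CPM of all reads in the WX-02-23 libraries and 302, 279 and 273 in the PladB libraries. For HSPA1B the log2 change was -2.14 (SE 0.08, adjusted p = 4.5e-12). DMSO means were 208 and 426 CPM, so total RNA of both genes was highest in WX-02-23. In new RNA neither passed the test with T>C reads scaled to each other. HSPA1A had 358, 126 and 271 T>C CPM in the WX-02-23 libraries and 84.2, 1.29 and 75.8 in the PladB libraries (log2 change -2.22, adjusted p = 0.104). HSPA1B had a log2 change of -0.43 (adjusted p = 0.273). With T>C reads scaled to all reads both genes were called lower in PladB. The log2 change was then -2.9998 for HSPA1A (adjusted p = 0.0299) and -1.19 for HSPA1B (adjusted p = 0.0045). The genes are near-identical and reads can be split between them. Among 25 genes tested in new RNA 2 fell, HSPA8 among them, and 3 rose (HSPD1, HSP90AB1 and UBB), beside 2.23% and 4.08% of all genes tested. The median was -0.44, and with T>C reads scaled to all reads none rose and 8 fell. HSPA8, the constitutive HSP70, had a small fall (log2 change -0.68, adjusted p = 0.0378), a call that was lost without any 1 of WX-02-23 replicates 1, 2 and 3 or PladB replicates 1 and 3 (adjusted p from 0.0624 to 0.147), and 84.9% of its reads were multimapping. HSPD1, the mitochondrial chaperonin, and HSP90AB1, a cytosolic HSP90, were higher by 0.67 and 0.57 relative to the bulk of new RNA, but had log2 changes of -0.10 and -0.20 when T>C reads were scaled to all reads. Both calls were lost without 5 of the 6 libraries in turn (adjusted p up to 0.173 and 0.160); they held without PladB replicate 2.

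The heat shock element, searched in the same way on both strands, was found for 7 of the 25 chaperone genes in the promoter table, against 0.557% of all genes and 0.393% of genes tested. The windows below show that the called genes holding it went in both directions in new RNA.
HSPA8 (lower), chr11:123062345-123062374, minus strand: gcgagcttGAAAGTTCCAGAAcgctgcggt
HSP90AB1 (higher), chr6:44247770-44247799, plus strand: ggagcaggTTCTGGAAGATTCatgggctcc
HSPD1 (higher), chr2:197500059-197500088, minus strand: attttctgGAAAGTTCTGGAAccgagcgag

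Genes of the unfolded protein response, which serve folding in the endoplasmic reticulum, were on the other side. Of 16 genes tested in new RNA 3 rose, beside 4.08% of all genes tested, and none fell. The median was 0.43 (-0.34 with T>C reads scaled to all reads, where none rose and 4 fell, and the median of all genes was -0.99). HSPA5, the reticulum HSP70 BiP (chr9:127997127-127998870 on the minus strand), had 2199, 2049 and 2127 T>C CPM in the WX-02-23 libraries and 3304, 3807 and 3906 in the PladB libraries. For HSPA5 the log2 change was 0.79 (SE 0.11, adjusted p = 0.000805). CRELD2, a disulfide isomerase partner (chr22:50320956-50321188 on the plus strand), had 312, 373 and 355 T>C CPM in the WX-02-23 libraries and 909.9, 829 and 684 in the PladB libraries. For CRELD2 the log2 change was 1.22 (SE 0.19, adjusted p = 0.00153). All PladB libraries exceeded all WX-02-23 libraries for both genes, and DMSO was close to WX-02-23. With scaling to all reads the changes of HSPA5 (0.02), CRELD2 (0.46) and the third called gene, MANF (-0.14), no longer passed (adjusted p from 0.174 to 0.939). MANF also lost its call (adjusted p = 0.0171) without any 1 of WX-02-23 replicates 1, 2 and 3 or PladB replicate 1 (adjusted p from 0.0686 to 0.141). In all reads 12 of the 16 rose and 3 fell (HERPUD1, XBP1 and SEL1L), with a median of 0.52, and the lectin chaperone CANX went from 881 ± 57.9 to 1439.9 ± 73.5 CPM (SD, n = 3) with a log2 change in new RNA of 0.15 (adjusted p = 0.824).

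**Figure D3:**
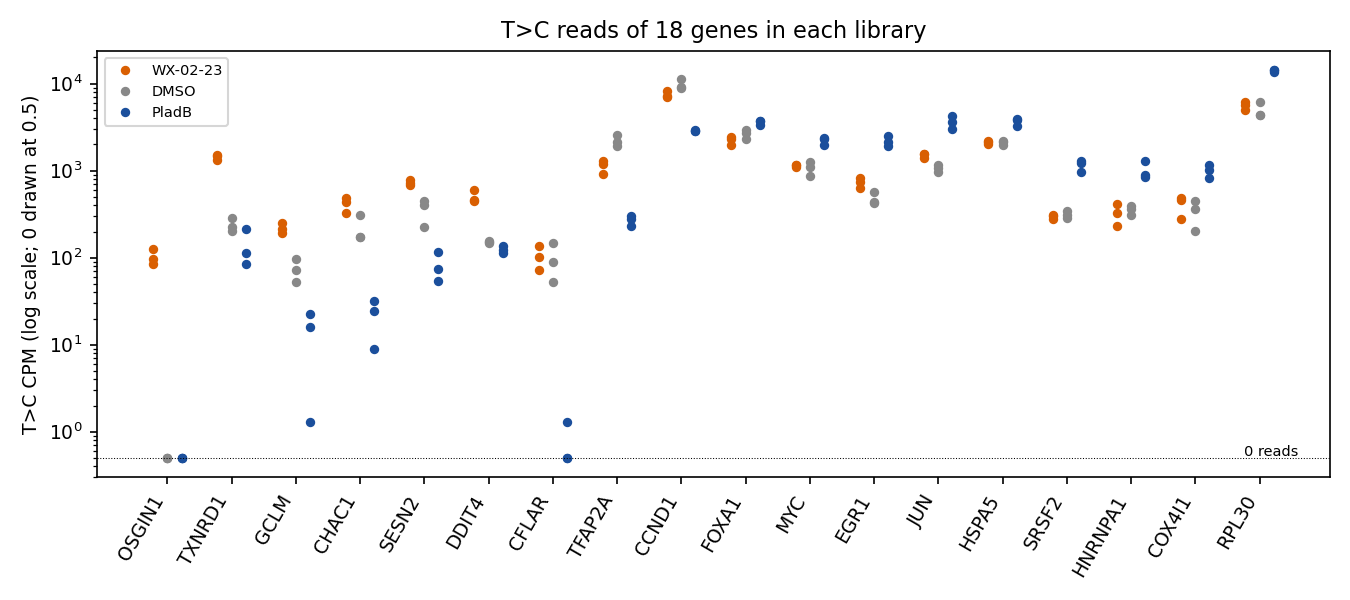
T>C CPM (log axis) of 18 genes in each WX-02-23, DMSO and PladB library, with values of 0 drawn at 0.5. Genes run from those lower in PladB at the left to those higher at the right. For OSGIN1, TXNRD1 and DDIT4 the WX-02-23 libraries stand above both other groups, and for CHAC1, SESN2 and CFLAR the PladB libraries stand lowest.

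Lineage factors of luminal prostate cells moved in both directions. Of 22 tested in new RNA 2 rose and 5 fell, beside 4.08% and 2.23% of all genes tested. With T>C reads scaled to all reads 1 rose and 11 fell. Of 23 tested in all reads 8 rose and 9 fell, beside 15.9% and 15.1%. FOXA1 (chr14:38058757-38060569 on the minus strand) had 2408, 1967 and 2338 T>C CPM in the WX-02-23 libraries and 3688, 3331 and 3700.2 in the PladB libraries, against 2634 ± 307 (SD, n = 3) in DMSO. The PladB libraries were all higher, with log2 change 0.67 (SE 0.12, adjusted p = 0.00332), but the call was lost without WX-02-23 replicate 2 (adjusted p = 0.0567) and the log2 change was -0.10 with T>C reads scaled to all reads. In all reads FOXA1 rose from 455 ± 47.7 to 792 ± 58.1 CPM (SD, n = 3). For FOXA1 the log2 change was 0.80 (SE 0.09, adjusted p = 2.48e-06). TFAP2A, an AP-2 factor (chr6:10396916-10398649 on the minus strand), had 1303, 1198 and 915 T>C CPM in the WX-02-23 libraries and 298, 233 and 279 in the PladB libraries. For TFAP2A the log2 change was -2.07 (SE 0.20, adjusted p = 3.87e-05), and DMSO was higher than both, at 2205. ELF3, an epithelial ETS factor (chr1:201984452-201986316 on the plus strand), fell from 842 ± 87.4 to 256 ± 77.2 T>C CPM (SD, n = 3, adjusted p = 0.000637), and GRHL2, a grainyhead factor, from 142 ± 17.8 to 14.7 ± 14.7 (SD, n = 3, adjusted p = 0.0469), a call lost without any 1 of WX-02-23 replicates 1, 2 and 3 or PladB replicates 1 and 3 (adjusted p from 0.0509 to 0.166).

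Several lineage factors were higher in total RNA with no matching rise in new RNA. GATA2, a zinc finger factor that works with FOXA1 (chr3:128198265-128199861 on the minus strand), had 220.0, 218 and 199 CPM of all reads in the WX-02-23 libraries and 609.8, 642 and 551 in the PladB libraries. It rose in all reads (adjusted p = 4.35e-09), while its T>C log2 change was 0.35 (adjusted p = 0.24). TBX3, a T-box repressor (chr12:115108059-115109645 on the minus strand), had 2678, 2167 and 2422 T>C CPM in the WX-02-23 libraries and 1493, 1327 and 1619 in the PladB libraries but 704, 579 and 652 CPM of all reads in WX-02-23 and 972, 901 and 1050.1 in PladB. New TBX3 RNA was therefore lower (log2 change -0.71, adjusted p = 0.00553) and total TBX3 RNA higher (log2 change 0.59, adjusted p = 2.98e-05). Among androgen-regulated genes 2 rose, PMEPA1 among them, and 2 fell (CAMKK2 and FKBP5) of 17 tested in new RNA, beside 4.08% and 2.23% of all genes tested. In all reads 4 rose and 6 fell of 23, beside 15.9% and 15.1%. FKBP5, a hormone receptor co-chaperone, had 194, 243 and 148 T>C CPM in the WX-02-23 libraries and 58.6, 52.8 and 37.2 in the PladB libraries, a call (adjusted p = 0.0143) lost without any 1 of WX-02-23 replicates 1 and 2 or PladB replicate 3 (adjusted p from 0.0518 to 0.111). PMEPA1, an inhibitor of TGF-beta signalling, had a T>C log2 change of 0.81 (adjusted p = 0.00848), which was 0.03 with T>C reads scaled to all reads and lost its call without any 1 of WX-02-23 replicates 1 and 3 (adjusted p from 0.0761 to 0.0762). CAMKK2, a kinase kinase, had 69.6, 83.3 and 52.00 T>C CPM in the WX-02-23 libraries and 3.78, 0 and 1.33 in the PladB libraries, a call (adjusted p = 0.0278) lost without any 1 of WX-02-23 replicates 1, 2 and 3 or PladB replicate 3 (adjusted p from 0.0664 to 0.152).

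Genes for the splicing machinery were higher in PladB relative to the bulk of new RNA. Of 35 SR and hnRNP regulators 13 rose and 1 fell in new RNA, with a median of 0.63 (-0.14 with T>C reads scaled to all reads, where 3 rose and 3 fell), and 9 of the 13 rises held with any library left out. In all reads 23 rose and 3 fell, with a median of 0.48. SRSF2, an SR protein of exon recognition (chr17:74730197-74732242 on the minus strand), had 277, 308 and 304 T>C CPM in the WX-02-23 libraries and 964, 1235 and 1281 in the PladB libraries. For SRSF2 the log2 change was 1.97 (SE 0.18, adjusted p = 3.32e-05). SRSF7 (chr2:38970741-38972274 on the minus strand) had 261, 263 and 165 T>C CPM in the WX-02-23 libraries and 583, 1169 and 690.3 in the PladB libraries. For SRSF7 the log2 change was 1.83 (SE 0.28, adjusted p = 0.0013), and SRSF3 rose from 319 ± 77.4 to 884 ± 126 T>C CPM (SD, n = 3, adjusted p = 0.00108). HNRNPA1 (chr12:54678098-54679030 on the plus strand) had 416, 234 and 327 T>C CPM in the WX-02-23 libraries and 843, 1301 and 882 in the PladB libraries. For HNRNPA1 the log2 change was 1.63 (SE 0.24, adjusted p = 0.00104). In all these genes DMSO lay beside WX-02-23 and the PladB libraries were apart. HNRNPH2 also rose (adjusted p = 0.00873), a call lost without any 1 of WX-02-23 replicate 1 or PladB replicate 3 (adjusted p from 0.0568 to 0.0637), and shares its interval with a read-through gene. SRSF3 and HNRNPH2 lost their calls with T>C reads scaled to all reads (adjusted p = 0.0667 and 0.0979). PTBP1, a polypyrimidine tract repressor, was the member that fell (log2 change -2.13, adjusted p = 0.0498), and leaving out any library ended that call (adjusted p up to 0.286).

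Genes of the PladB target complex and its partners were called in one direction only in new RNA. Of 19 SF3b, SF3a and U2 factor genes tested 3 rose (SF3B4, SF3B5 and U2AF2), beside 4.08% of all genes tested, and none fell, with a median of 0.55 (-0.22 with T>C reads scaled to all reads, where none passed). SF3B1 (chr2:198256698-198285101 on the minus strand) had 66.4, 38.00 and 73.3 T>C CPM in the WX-02-23 libraries and 102, 130.1 and 81.1 in the PladB libraries, with a log2 change of 0.82 (adjusted p = 0.492, 95% interval -0.35 to 1.98), and in all reads 0.36 (adjusted p = 0.0953). PHF5A, the SF3b subunit that meets SF3B1 at the PladB pocket (chr22:41855721-41856401 on the minus strand), had 140.1, 46.1 and 147 T>C CPM in the WX-02-23 libraries and 329, 183 and 326 in the PladB libraries. Its T>C change missed the threshold (log2 change 1.33, adjusted p = 0.0791), though DESeq2 called it (adjusted p = 0.012), and in all reads it rose from 60.3 ± 8.61 to 98.7 ± 10.1 CPM (SD, n = 3, adjusted p = 0.00156). U2AF2, which reads the polypyrimidine tract (chr19:56185435-56186082 on the plus strand), had 530.4, 506 and 527 T>C CPM in the WX-02-23 libraries and 1007, 940.2 and 1107 in the PladB libraries. For U2AF2 the log2 change was 0.97 (SE 0.16, adjusted p = 0.00247). The SF3b subunit genes SF3B5 (log2 change 1.00) and SF3B4 (0.95) had calls that were lost without any 1 of WX-02-23 replicates 1 and 3 (adjusted p from 0.0588 to 0.0878) and without any 1 of WX-02-23 replicates 1, 2 and 3 or PladB replicates 1 and 3 (adjusted p from 0.064 to 0.157), respectively. In all reads 8 of 21 rose and 1, RBM17, fell.

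Genes of cytosolic ribosomal proteins were higher in PladB in both readouts. Of 77 genes tested in new RNA 27 rose and none fell, with a median of 0.68 (-0.09 with T>C reads scaled to all reads, where 5 rose and none fell), and 16 of the 27 held with any library left out. In all reads 73 of the 77 rose and none fell, with a median of 0.58. Among the 48 genes with under 20% multimapping reads 23 rose, with a median of 0.82. RPL30, of the large subunit, had 5751, 4939 and 6115 T>C CPM in the WX-02-23 libraries and 14302, 14198 and 13500.1 in the PladB libraries. For RPL30 the log2 change was 1.32 (SE 0.09, adjusted p = 2.95e-06), and RPL35A went from 1333 ± 212 to 3590.4 ± 387 T>C CPM (SD, n = 3, adjusted p = 5.3e-05). Every PladB library exceeded every WX-02-23 library for both genes. The labelled share of RPL30 was 16.9 ± 1.34% in WX-02-23 and 15.01 ± 0.452% in PladB (SD, n = 3), while the share over the whole library was 9.64% and 5.44%. RPL39 rose as well (log2 change 1.31, adjusted p = 0.00464), and 51.8% of its reads were multimapping.

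Nuclear genes of the respiratory chain rose alongside, with 9 of 40 called higher and none lower in new RNA (median 0.62, or -0.12 with T>C reads scaled to all reads, where none passed), and 38 of 40 higher in all reads (median 0.50). COX4I1, a subunit of cytochrome c oxidase (chr16:85840109-85840609 on the plus strand), had 490.3, 277 and 458 T>C CPM in the WX-02-23 libraries and 1147, 828 and 1016 in the PladB libraries. For COX4I1 the log2 change was 1.29 (SE 0.23, adjusted p = 0.00343). UQCRB, of complex III, went from 306 ± 21.9 to 765 ± 165 T>C CPM (SD, n = 3, adjusted p = 0.00158). These 2 kept their calls with any library left out, and the other 7, among them NDUFA1 and NDUFS3 of complex I, lost theirs without 1 library or more (adjusted p up to 0.238). Of 32 proteasome subunit genes 2 rose (PSMB4 and PSMA4) and 1, PSMD11, fell in new RNA, beside 4.08% and 2.23% of all genes tested, with a median of 0.27 (-0.50 with T>C reads scaled to all reads), and 13 rose and 1 fell in all reads. PSMB4, a core particle subunit, had 695, 605 and 719 T>C CPM in the WX-02-23 libraries and 1371, 1218 and 1627 in the PladB libraries. For PSMB4 the log2 change was 1.06 (SE 0.16, adjusted p = 0.0013). PSMA4 (adjusted p = 0.0253) and PSMD11 (adjusted p = 0.031) lost their calls on leaving out 4 and 6 of the 6 libraries, and PSMD11 had adjusted p up to 0.16 in all reads with a library left out.

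Immediate early genes, which respond to growth signals within minutes, went in both directions. Of 41 tested in new RNA 6 rose (EGR1, JUN, IER2, MYC, RGS2 and RHOB) and 5 fell (KLF10, DUSP2, ID1, ID2 and ID3). These counts stand beside 4.08% and 2.23% of all genes tested, and the list median was -0.07. With T>C reads scaled to all reads 2 rose and 14 fell, and the median was -0.86. EGR1 (chr5:137803771-137805004 on the plus strand) had 816, 747 and 639 T>C CPM in the WX-02-23 libraries and 2162, 1918 and 2479 in the PladB libraries. For EGR1 the log2 change was 1.57 (SE 0.15, adjusted p = 4.75e-05). JUN, an AP-1 subunit (chr1:59246463-59247746 on the minus strand), had 1559.7, 1539.6 and 1386 T>C CPM in the WX-02-23 libraries and 3032, 3672 and 4229.6 in the PladB libraries. For JUN the log2 change was 1.29 (SE 0.14, adjusted p = 8.52e-05). For both, PladB libraries were above all WX-02-23 libraries and DMSO was the lowest, at 480.0 and 1075 T>C CPM. MYC had 1156, 1105 and 1147 T>C CPM in the WX-02-23 libraries and 2313, 1964 and 2356 in the PladB libraries. For MYC the log2 change was 0.96 (SE 0.13, adjusted p = 0.00055), and this became 0.19 (adjusted p = 0.399) with T>C reads scaled to all reads. RGS2, a brake on G protein signalling (chr1:192780727-192781407 on the plus strand), had 5544, 5723 and 5621 T>C CPM in the WX-02-23 libraries and 9178, 9103 and 9796 in the PladB libraries. For RGS2 the log2 change was 0.73 (SE 0.08, adjusted p = 0.000118), which was -0.038 with T>C reads scaled to all reads. In all reads RGS2 went from 888 ± 24.7 to 2448 ± 9.18 CPM (SD, n = 3, adjusted p = 8.6e-12). KLF10, a TGF-beta inducible repressor, fell from 441 ± 57.5 to 145 ± 42.7 T>C CPM (SD, n = 3, adjusted p = 0.00312).

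The ID genes, which hold back basic helix-loop-helix factors, fell in new RNA, and for ID2 and ID3 the size of the fall depended on the scaling. With T>C reads scaled to all reads the log2 change was -1.21 for ID2 (adjusted p = 8.5e-06) and -1.55 for ID3 (adjusted p = 4.4e-07). With T>C reads scaled to each other the falls were smaller. ID3 (chr1:23884421-23885450 on the minus strand) had 6125, 6384 and 6671 T>C CPM in the WX-02-23 libraries and 3606, 3694 and 3864 in the PladB libraries. For ID3 the log2 change was -0.78 (SE 0.09, adjusted p = 0.000164), while its total RNA had a log2 change of 0.12 (adjusted p = 0.181). ID2 (chr2:8823030-8824583 on the plus strand) had 10352, 9391 and 9268 T>C CPM in the WX-02-23 libraries and 7667, 6044 and 7665 in the PladB libraries (log2 change -0.44, adjusted p = 0.0192), a call lost without WX-02-23 replicate 1 (adjusted p = 0.0618), and its total RNA rose from 1473 ± 103 to 2124 ± 35.6 CPM (SD, n = 3, adjusted p = 4.9e-06). In both genes new RNA was lower in every PladB library although total RNA was not. In all reads 9 genes of the immediate early list rose and 4 fell of 42 tested, beside 15.9% and 15.1% of all genes tested.

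Of cell cycle genes CCND1, the G1 cyclin, was the clearest in new RNA. CCND1 (chr11:69466051-69469242 on the plus strand) had 8225, 6973 and 7289 T>C CPM in the WX-02-23 libraries and 2932, 2869.5 and 2881 in the PladB libraries. For CCND1 the log2 change was -1.37 (SE 0.10, adjusted p = 3.74e-06), and DMSO, at 9788 ± 1272 (SD, n = 3), was above both. BIRC5, the mitotic survivin gene (chr17:76219636-76221716 on the plus strand), had 425, 412 and 287 T>C CPM in the WX-02-23 libraries and 973, 806 and 807 in the PladB libraries. For BIRC5 the log2 change was 1.20 (SE 0.20, adjusted p = 0.00247), with no call in all reads (log2 change 0.23, adjusted p = 0.11). AURKB, a mitotic kinase, rose too (log2 change 1.36, adjusted p = 0.0118), a call lost without any 1 of WX-02-23 replicates 2 and 3 or PladB replicate 1 (adjusted p from 0.0538 to 0.0842). These 3 were the only members called among 34 tested (median 0.23, or -0.52 with T>C reads scaled to all reads, where BIRC5 and AURKB no longer passed at adjusted p = 0.208 and 0.253). The 2 rises and 1 fall stand beside 4.08% and 2.23% of all genes tested. In all reads 4 rose and 5 fell of 36, beside 15.9% and 15.1%.

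Among regulators of cell death 4 of 13 genes tested fell in new RNA and 1 rose, beside 2.23% and 4.08% of all genes tested. CFLAR, the inhibitor of caspase-8 (chr2:202001151-202037411 on the plus strand), had 135, 103 and 72.1 T>C CPM in the WX-02-23 libraries and 0, 1.29 and 0 in the PladB libraries. That is 546 T>C reads over the WX-02-23 libraries and 1 over the PladB libraries, a count ratio of 275 with an interval of 49.2 to 10894 for counting error only (adjusted p = 0.00146). Total CFLAR RNA fell from 84.9 ± 13.99 to 43.2 ± 0.801 CPM (SD, n = 3, adjusted p = 0.000187), and an antisense gene overlaps its interval. MCL1, the short-lived anti-apoptotic BCL2 relative (chr1:150547027-150549850 on the minus strand), was the member that rose, with 869, 1009.9 and 826 T>C CPM in the WX-02-23 libraries and 1562, 1616 and 1824 in the PladB libraries. For MCL1 the log2 change was 0.89 (SE 0.15, adjusted p = 0.00217), or 0.12 (adjusted p = 0.64) with T>C reads scaled to all reads. The BH3-only genes BMF (at least 13.3-fold lower, adjusted p = 0.0243), PMAIP1 (log2 change -1.56, adjusted p = 0.00862) and BBC3 (log2 change -0.96, adjusted p = 0.0428) lost their calls without any 1 of WX-02-23 replicates 1, 2 and 3 or PladB replicate 1 (adjusted p from 0.0537 to 0.147), without WX-02-23 replicate 3 (adjusted p = 0.0556) and without any 1 of WX-02-23 replicates 2 and 3 or PladB replicates 1, 2 and 3 (adjusted p from 0.0518 to 0.144), respectively. The list median was -0.96 in new RNA and -0.06 in all reads, where 2 of 19 rose and 3 fell, beside 15.9% and 15.1% of all genes tested. Among p53 targets 2 of 18 rose (CCNG1 and TRIAP1) and 2 fell (PMAIP1 and BBC3) in new RNA, beside 4.08% and 2.23% of all genes tested. None of these 4 calls held with each library left out (adjusted p up to 0.156). In all reads 4 rose and 8 fell of 24, beside 15.9% and 15.1%.

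The 12 falls in new RNA named by fitted size were all of genes with no T>C read in any PladB library. A fitted fold over such a group is no measure of its size, so bounds are given here, and they do not rank these genes against measured falls such as those of CFLAR and CHAC1. AP5S1, a subunit of the AP-5 adaptor (chr20:3804945-3805954 on the plus strand), had 127, 177 and 67.96 T>C CPM in the WX-02-23 libraries and 0 in the PladB libraries, at least 34.8-fold lower (adjusted p = 0.000766), and DMSO had 32.97 ± 11.2 (SD, n = 3). Its total RNA fell from 40.7 ± 8.58 to 4.36 ± 1.81 CPM (SD, n = 3, adjusted p = 1.15e-06). OSGIN1, given above, was among them. The others were MAST4 (at least 24.8-fold lower), KLHL21 (21.9), RNF24 (17.6), LETM2 (17.2), ZFP90 (16.5), ARHGEF37 (16.2), SCAF4 (15.3), PTCH1 (15.0), RFX3 (14.5) and RGS3 (14.5). PTCH1, the Hedgehog receptor, had 64.6, 26.7 and 69.1 T>C CPM in the WX-02-23 libraries and 133 ± 39.01 (SD, n = 3) in DMSO. These 10 calls were each lost without 1 or more of the WX-02-23 libraries (adjusted p up to 0.146), and none by leaving out a PladB library. In all, 39 called genes had no T>C read in PladB, and none had no T>C read in WX-02-23. The PladB libraries held fewer T>C reads, 826780 to 1175503 against 1157967 to 2094108 per WX-02-23 library. The part of this depth in the zeros was not tested. RNF24 overlaps a gene on the other strand.

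The 12 largest rises in new RNA ran from a log2 change of 2.23 upwards, and 4 of them held with any library left out. EIF1AD, an eIF1A-domain protein (chr11:65764016-65766069 on the minus strand), had 75.96, 109 and 98.7 T>C CPM in the WX-02-23 libraries and 535, 477 and 523 in the PladB libraries. For EIF1AD the log2 change was 2.44 (SE 0.26, adjusted p = 8.52e-05). CYB5D1 (chr17:7762786-7765600 on the plus strand) had 54.1, 43.7 and 41.4 T>C CPM in the WX-02-23 libraries and 245, 206 and 299 in the PladB libraries. For CYB5D1 the log2 change was 2.43 (SE 0.37, adjusted p = 0.00128). KCNJ3, a potassium channel subunit, had 53.7, 45.3 and 73.3 T>C CPM in the WX-02-23 libraries and 171, 307 and 440.3 in the PladB libraries. For KCNJ3 the log2 change was 2.41 (SE 0.40, adjusted p = 0.00225). The groups did not overlap for any of these 3, and total RNA rose too, by 1.71, 1.01 and 1.33 on the log2 scale. KTI12, a factor for tRNA modification (chr1:52497777-52498368 on the minus strand), had 56.9, 92.2 and 68.6 T>C CPM in the WX-02-23 libraries and 357, 252 and 408 in the PladB libraries and shares its interval with TXNDC12. PAPD4, a poly(A) polymerase also named TENT2, had 1 T>C read over the WX-02-23 libraries and 101 over the PladB libraries, a count ratio of 200.3 with a counting interval of 35.1 to 7989, and no call in all reads (adjusted p = 0.366). SDHAF1, an assembly factor of complex II, had 49.6, 0.809 and 20.7 T>C CPM in the WX-02-23 libraries and 189, 283 and 355 in the PladB libraries. The remaining 6 were HOXB5, RWDD1, NDUFS6, CBX1, NUAK2 and ZDHHC7, with log2 changes of 3.42, 3.22, 3.06, 2.61, 2.43 and 2.33. These 6, PAPD4 and SDHAF1 lost their calls without 1 library or more (adjusted p up to 0.214), and with T>C reads scaled to all reads (adjusted p from 0.0511 to 0.16).

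Total RNA differed for a larger part of the genes. Of 12436 genes tested in all reads 3847 (30.9%) were called, 1972 higher (15.9%) and 1875 lower (15.1%) in PladB, and 2371 of these calls held with any library left out. The all-read counts of every gene list are to be read beside these shares. Large changes were mostly falls: 1146 genes were at least 2-fold lower and 175 at least 2-fold higher. DMSO lay nearer to WX-02-23 for 1746 of the higher and 1706 of the lower genes. After HSPA1A, the named falls were STC2, AP5S1, CHAC1, N4BP1 and SIN3B, whose log2 changes were -3.49, -3.22, -2.72, -2.66 and -2.64. SIN3B, a corepressor scaffold (chr19:16989539-16991164 on the plus strand), had 36.02, 36.2 and 50.2 CPM of all reads in the WX-02-23 libraries and 4.40, 5.79 and 9.45 in the PladB libraries. For SIN3B the log2 change was -2.64 (SE 0.31, adjusted p = 5.25e-06). N4BP1, an RNA-binding nuclease (chr16:48572637-48576814 on the minus strand), had 49.5, 26.8 and 38.8 CPM of all reads in the WX-02-23 libraries and 8.21, 6.43 and 3.54 in the PladB libraries. For N4BP1 the log2 change was -2.66 (SE 0.33, adjusted p = 1.15e-05). The groups were apart for both, and DMSO was beside WX-02-23.

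The named rises in total RNA were MED26, ZNF574, PHF13, CREBZF, ZNF669 and CCNL1. CREBZF, a bZIP cofactor (chr11:85368608-85374854 on the minus strand), had 56.8, 60.2 and 38.5 CPM of all reads in the WX-02-23 libraries and 233, 248 and 255 in the PladB libraries. For CREBZF the log2 change was 2.24 (SE 0.15, adjusted p = 1.77e-08). MED26, a Mediator subunit (chr19:16685718-16686837 on the minus strand), had 11.3, 7.48 and 8.21 CPM of all reads in the WX-02-23 libraries and 42.3, 63.1 and 45.2 in the PladB libraries. For MED26 the log2 change was 2.47 (SE 0.26, adjusted p = 1.57e-06). CCNL1, the cyclin L1 of splicing kinases (chr3:156864291-156866029 on the minus strand), had 14.9, 16.5 and 18.8 CPM of all reads in the WX-02-23 libraries and 70.4, 69.98 and 80.4 in the PladB libraries. For CCNL1 the log2 change was 2.14 (SE 0.19, adjusted p = 3.31e-07), and its new RNA also rose (log2 change 2.15, adjusted p = 0.0013). PHF13 and ZNF669 were not called in new RNA (adjusted p = 0.874 and 0.282), and the T>C calls of MED26 and ZNF574 ended on leaving out 6 and 5 of the 6 libraries (adjusted p up to 0.147 and 0.151). Each of the 12 genes named from all reads kept its all-read call with any library left out.

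New and total RNA mostly moved together. Of the 543 genes called in new RNA 445 were called in all reads in the same direction, 91 were not called in all reads, and 7 were called in the opposite direction. Among those 7, ACTR2, COLCA1, FTH1, ID2 and TBX3 were lower in new and higher in total RNA, and KPNB1 was higher in new and lower in total RNA. ACTR2, a subunit of the actin-branching Arp2/3 complex, had a log2 change of -1.59 in new RNA, lost without any 1 of WX-02-23 replicates 1 and 3 or PladB replicate 3 (adjusted p from 0.0609 to 0.0992), and 0.38 in all reads. COLCA1 had -3.44 in new RNA, lost without any 1 of WX-02-23 replicates 1, 2 and 3 or PladB replicate 1 (adjusted p from 0.108 to 0.18), and 0.55 in all reads, lost without any 1 of WX-02-23 replicate 1 or PladB replicate 1 (adjusted p from 0.0825 to 0.101). The importin gene KPNB1 (chr17:45759771-45761004 on the plus strand) had 5080.2, 5797 and 5739.9 T>C CPM in the WX-02-23 libraries and 8121, 7033 and 8406 in the PladB libraries (log2 change 0.50, adjusted p = 0.00669), a call lost without any 1 of WX-02-23 replicates 1, 2 and 3 (adjusted p from 0.0514 to 0.108) and of opposite sign, -0.27, with T>C reads scaled to all reads. In all reads it fell (log2 change -0.27, adjusted p = 0.00481). TRIAP1, a small mitochondrial lipid carrier subunit, was among the 91, with 281, 213 and 299 T>C CPM in the WX-02-23 libraries and 562, 844 and 584 in the PladB libraries and no call in all reads (adjusted p = 0.625). T>C reads are part of all reads, and the 2 readouts are not independent.

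**Figure D4:**
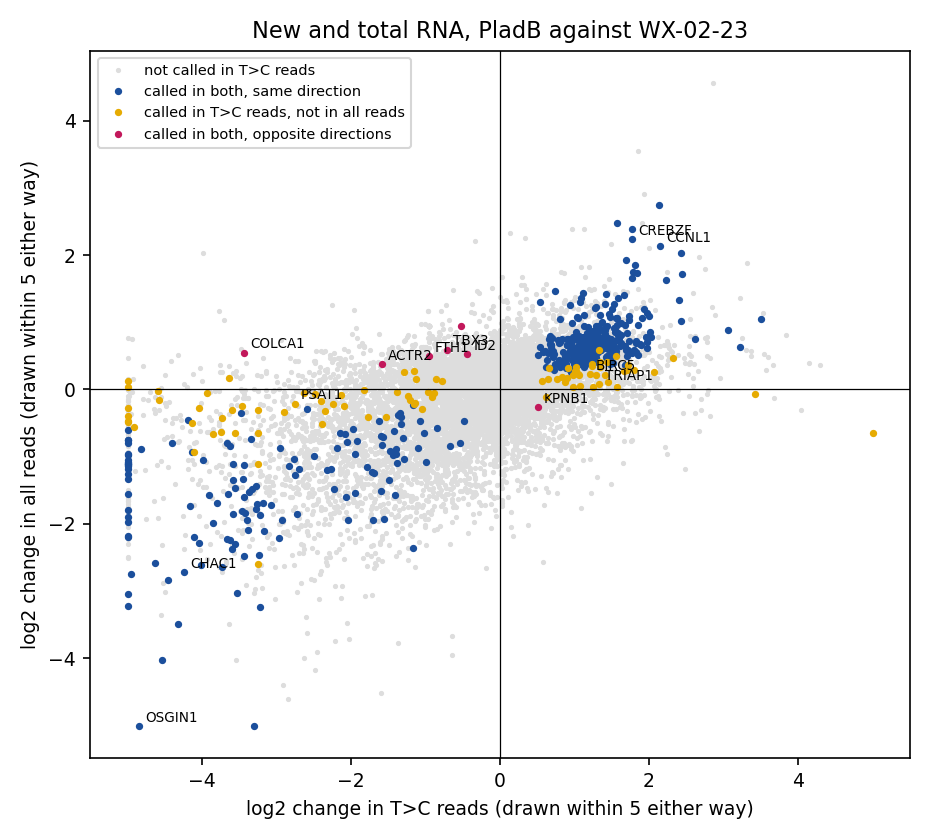
Log2 change in all reads against log2 change in T>C reads, PladB against WX-02-23, for the 8600 genes tested in both, with 1 point a gene and values beyond 5 drawn at 5. Blue points are the 445 genes called in both with the same direction, yellow the 91 called in T>C reads only, and pink the 7 called in opposite directions. Most coloured points lie in the lower left and upper right parts of the plot.

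The labelled share of single genes, the percent of a gene's reads that carry T>C, was lower in PladB for nearly every gene that passed the test. Of 10130 genes with at least 20 reads in each library, 466 (4.6%) were called, 465 lower (4.59%) and 1 higher (0.00987%), and the median log2 change of the odds was -1.29. When T>C reads and other reads were each scaled to their own bulk, the calls were 52 higher and 70 lower. The median over all genes tested was then -0.42, so the typical gene was not at 0. ID2 had labelled shares of 61.5, 61.7 and 60.1% in the WX-02-23 libraries and 19.9, 16.1 and 18.9% in the PladB libraries. For ID2 the log2 change was -2.82 (SE 0.15, adjusted p = 0.000122) in odds. MYC had 89.98, 85.01 and 83.2% and 50.6, 45.6 and 51.3%, and GATA2 38.6, 42.9 and 37.2% and 11.4, 9.57 and 10.5%. For each of these 3 regulators the groups were far apart. FOXA1 went from 45.9 ± 3.94% to 24.7 ± 1.15% (SD, n = 3, adjusted p = 0.0139), a call lost without any 1 of WX-02-23 replicates 1 and 3 or PladB replicate 3 (adjusted p from 0.055 to 0.0712). EGR1 and JUN differed less, with 80.2 ± 7.62% against 67.2 ± 3.01% and 73.2 ± 2.25% against 62.9 ± 4.23% (SD, n = 3), and were not called (adjusted p = 0.228 and 0.216). KPNB1 had 39.3 ± 1.38% in WX-02-23 and 39.3 ± 2.08% in PladB (SD, n = 3), and the 95% interval of its log2 change of the odds was -0.35 to 0.35.

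By fitted size the named falls in share were IMPACT, RFX3, RNF24, SCAF4, SLC43A2 and ZNF343, all at 0 T>C reads in PladB. RFX3, a ciliary transcription factor, had 9.54, 17.8 and 29.01% in WX-02-23 and 0% in PladB, with 17.7, 20.4 and 14.7 CPM of all reads still present there. SCAF4, which guards against early polyadenylation, had 47.7, 31.6 and 22.2% in WX-02-23 and 0% in PladB, and its total RNA was alike, with 15.2 ± 4.74 and 14.7 ± 1.79 CPM (SD, n = 3, adjusted p = 0.932). None of these 6 calls held with each library left out (adjusted p up to 0.156). The gene called higher, HSPA1B, had 5.39, 6.36 and 5.13% in WX-02-23 and 13.1, 10.4 and 8.75% in PladB (log2 change 1.00, adjusted p = 0.0411), and leaving out any library ended the call (adjusted p up to 0.165). By list, against 4.59% of all genes tested, calls lower in share were 18 of 77 for ribosomal proteins (median -0.69), 11 of 39 for immediate early genes (-2.11) and 9 of 27 for NRF2 genes (-1.94). They were 9 of 19 for integrated stress genes (-1.67), 9 of 23 for lineage factors (-1.76), 7 of 20 for androgen-regulated genes (-1.31) and 5 of 16 for unfolded protein genes (-0.94). No other list had more than 4 lower calls. With T>C and other reads each scaled to their own bulk, ribosomal proteins turned to 11 higher and none lower. Their median was 0.22 there, against -0.42 for all genes tested. The immediate early, NRF2, integrated stress and lineage lists had 3 to 6 lower calls and at most 1 higher. Androgen-regulated genes had 1 lower call and unfolded protein genes none, and neither list had a higher call.

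Genes with few exons were higher in the new RNA of PladB cells than genes with many. For genes annotated with 1 exon the median log2 change was 0.67 (161 tested, 32 higher, 1 lower), for 2 to 4 exons 0.02 (1325, 106, 38), for 5 to 9 exons -0.07 (3044, 157, 66), for 10 to 19 exons -0.39 (2894, 49, 53) and for 20 or more exons -0.72 (1146, 5, 33). Called genes were thus 19.9% higher and 0.621% lower in the class with 1 exon, and 0.436% higher and 2.88% lower in the class with 20 or more. The single-exon gene lower in PladB was C9orf66. With T>C reads scaled to all reads the medians of these classes were -0.11 and -1.49, so the order stayed and the sign of the first did not. In all reads the medians ran from 0.31 for 1 exon through 0.08, 0.05 and -0.13 to -0.25 for 20 or more, and in labelled share from -0.69 through -1.15, -1.20 and -1.33 to -1.78. Length of the gene moved with exon number: the median T>C change was 0.39 for genes of up to 5 kb and -0.74 for genes over 100 kb, and which of the 2 the change goes with was not tested. In 5 equal classes of genes by labelled share in DMSO, the median all-read change was 0.25, 0.16, -0.14, -0.33 and -0.29 from the lowest to the highest share, and the T>C change -0.03, -0.11, -0.31, -0.35 and -0.29.

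**Figure D5:**
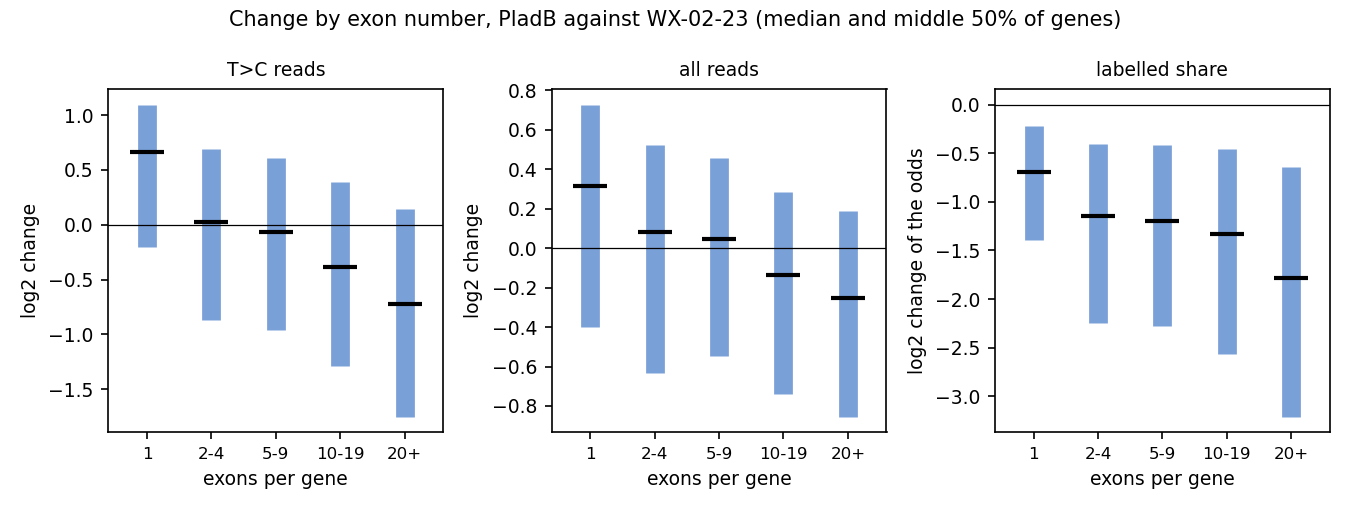
Log2 change, PladB against WX-02-23, by exons per gene in T>C reads, all reads and labelled share (log2 change of the odds). Black bars are medians and blue bars the middle 50% of genes in the class. In each panel the medians go down from 1 exon to 20 or more, from 0.67 to -0.72 in T>C reads, and single-exon genes are above 0 in T>C and all reads but not with T>C reads scaled to all reads.

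Named intronless genes followed the single-exon class. Of 32 tested in new RNA 9 rose and none fell, with a median of 0.39 (-0.39 with T>C reads scaled to all reads, where 2 rose and 5 fell), and in all reads 11 of 33 rose and 3 fell. Beside JUN and KTI12 they included MARS2, the mitochondrial methionyl-tRNA synthetase, with 151, 203 and 158 T>C CPM in the WX-02-23 libraries and 383, 245 and 545 in the PladB libraries, and TAF7, a TFIID subunit, with 284, 201 and 305 T>C CPM in the WX-02-23 libraries and 387, 567 and 682 in the PladB libraries. Both had PladB libraries above all WX-02-23 libraries, and their calls (adjusted p = 0.0344 and 0.0297) were lost without any 1 of WX-02-23 replicates 1, 2 and 3 or PladB replicates 1 and 3 (adjusted p from 0.0926 to 0.168) and without any 1 of WX-02-23 replicates 1, 2 and 3 or PladB replicate 3 (adjusted p from 0.0926 to 0.147), respectively. The 3 that fell in all reads were HSPA1A, HSPA1B and CLDN4. Replication histone genes, which also lack introns, were mostly too low to test: 4 of 14 were tested in new RNA with none called, and 2 of 8 (HIST1H2BK and HIST1H4C) rose in all reads. HIST1H4C had 2518, 1748 and 1807 T>C CPM in the WX-02-23 libraries and 2464, 1942 and 2755 in the PladB libraries, with overlapping groups (adjusted p = 0.521). HIST1H2BK had a T>C log2 change of 0.33 (adjusted p = 0.689).

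In several other gene groups up to 3 members were called in each direction in new RNA, to be read beside the 4.08% higher and 2.23% lower of all genes tested. Their all-read counts are to be read beside 15.9% higher and 15.1% lower. Of 30 MYC and ribosome biogenesis genes 2 rose in new RNA (MYC and RRS1) and none fell, with a median of -0.28, while in all reads 10 fell and 5 rose. RRS1, of ribosome assembly, had 77.3, 120.5 and 73.3 T>C CPM in the WX-02-23 libraries and 254, 270.5 and 234 in the PladB libraries, a call (adjusted p = 0.0182) lost without any 1 of WX-02-23 replicates 1 and 3 or PladB replicates 1 and 3 (adjusted p from 0.0515 to 0.12). Of 22 cleavage and polyadenylation genes 1 rose (CSTF2T) and 2 fell (CPSF4 and SCAF4), and in all reads 5 of 24 rose and 6 fell. CPSF4, which reads the polyadenylation signal (chr7:99054124-99055000 on the plus strand), had 160.4, 159 and 136 CPM of all reads in the WX-02-23 libraries and 45.2, 31.5 and 41.01 in the PladB libraries. For CPSF4 the log2 change was -1.95 (SE 0.15, adjusted p = 1.04e-07), and its T>C call (adjusted p = 0.0141) was lost without any 1 of WX-02-23 replicates 1, 2 and 3 or PladB replicate 1 (adjusted p from 0.0563 to 0.0828). CPSF7 fell in all reads (log2 change -1.36, adjusted p = 2.78e-05) and was not called in new RNA (adjusted p = 0.44), with 87.3, 165 and 92.8 T>C CPM in the WX-02-23 libraries and 44.5, 78.6 and 67.8 in the PladB libraries. The intronless CSTF2T (adjusted p = 0.0269) lost its T>C call without any 1 of WX-02-23 replicates 1 and 3 or PladB replicates 1 and 3 (adjusted p from 0.062 to 0.153). Of 14 genes of nonsense-mediated decay 1, SMG8, rose in new RNA (log2 change 1.91, adjusted p = 0.0269), a call lost without any 1 of WX-02-23 replicates 1, 2 and 3 or PladB replicate 3 (adjusted p from 0.0757 to 0.159); the median was -0.84, and in all reads 7 of 16 fell and 2 rose. Of 23 elongation control genes 1, AFF4, fell in new RNA, with 0 T>C reads in PladB and at least 10.9-fold lower (adjusted p = 0.0443), a call lost without any 1 of WX-02-23 replicates 1, 2 and 3 or PladB replicates 1 and 3 (adjusted p from 0.0838 to 0.144). In all reads 3 of those 23 rose and 4 fell.

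Zinc finger genes of chromosome 19, a cluster of repressor genes, had a median of -0.48 in new RNA. Among 150 tested there were 3 rises and 3 falls, beside 4.08% and 2.23% of all genes tested. In all reads 29 rose and 16 fell of 203, beside 15.9% and 15.1% of all genes tested. ZNF766 had 172, 169 and 211 T>C CPM in the WX-02-23 libraries and 28.4, 47.7 and 22.6 in the PladB libraries. For ZNF766 the log2 change was -2.48 (SE 0.48, adjusted p = 0.00683), a call lost without WX-02-23 replicate 3 (adjusted p = 0.0623), with an all-read change of -0.06 (adjusted p = 0.835). ZNF681 had 302 T>C reads over the WX-02-23 libraries and 1 over the PladB libraries, a count ratio of 152 with a counting interval of 27.1 to 6035 (adjusted p = 0.0176), a call lost without any 1 of WX-02-23 replicates 1, 2 and 3 or PladB replicate 1 (adjusted p from 0.0509 to 0.128). ZNF562 fell (log2 change -4.41, adjusted p = 0.0123) and ZNF567 rose (log2 change 2.13, adjusted p = 0.0322), with calls lost without any 1 of WX-02-23 replicates 2 and 3 (adjusted p from 0.0786 to 0.144) and without any 1 of WX-02-23 replicates 1, 2 and 3 or PladB replicate 3 (adjusted p from 0.125 to 0.131), respectively. ZNF428 was the only one of the 6 whose call held with any library left out.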

How the data were processed

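Values come from 12 deposited tables, 1 a library, of which the 6 of PladB and WX-02-23 entered the main tests. Per the file headers the authors mapped, filtered and counted reads with slamdunk 0.4.3 over 3′ UTR intervals and spike-ins. The submitters' processing notes name hg19 as the genome build. The deposited columns are read counts, T>C read counts, CPM per interval and the fraction of covered T positions converted; only the counts entered tests. The labels give the molecule as genomic DNA although the kits named are RNA kits. Coding intervals (20426 of 23086 kept, of 29255 in all) were joined so that overlapping intervals of a gene counted once, giving 18650 genes; 44 of 45 date-like names were restored from their RefSeq transcript accessions. Coding reads so kept were 86.6% of a plain sum. No spike-in read was found in 5 of the 6 libraries and 12 in the other, so they gave no scaling. Reads carry no molecular identifiers, and count floors (3 reads per library) and intervals (95%) cover counting error only.

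Genes were tested with edgeR 4.0.16 (R 4.3.3; glmQLFit, TMM, filterByExpr, group as the only term) and Benjamini-Hochberg adjustment over all genes tested, threshold 0.05. Each readout had its own TMM factors, from T>C reads or from all reads, and CPM values printed are on that scale. Labelled share was tested with T>C and other reads as 2 counts per library and the library as a block, for genes with at least 20 reads in each library. Exon numbers and spans came from GENCODE release 29 by gene name for 98.8% of genes. Replicates differed by more than sampling noise (chi-square per gene from 17.5 to 27.1).

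Genes were named by rule: the 12 largest changes each way in T>C reads, and 6 each way in all reads and in share, among called genes with groups apart, at least 20 CPM (200 reads for share), under 20% multimapping reads and a plain gene name; up to 4 called members of each of 22 lists by size (with none called, the 2 highest); and FOXA1, SF3B1 and PHF5A. Some genes so named are not reported here. TXNRD1, GDF15, FTH1, TBX3, ID2, ID3, RGS2, SRSF3, HNRNPA1, GATA2, MCL1, ATF4, DDIT4, PSAT1, CPSF7, ACTR2, KPNB1, COLCA1, SLC7A11 and CANX were named after their values were seen, as were other list members given by log2 change only. The comparison, its members and the lists were chosen with earlier results of these data known. Alternatives were RLE factors, DESeq2 1.42.0, limma 3.58.1, other filters and scalings, all 12 libraries in the fit, a replicate block, and each library left out. Noncoding intervals were not used in tests of genes, and WX-02-43 and DMSO libraries entered tests of genes only in the fit of all 12.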

Additional observations from a re-analysis of the deposited data

How the results depend on the processing

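With other settings, the count of genes called in T>C reads was 1458 with DESeq2 (639 higher, 819 lower), 843 with no filter on low counts, 1084 with all 12 libraries in the fit (473 higher, 611 lower), and 225 to 683 with each library left out. It stayed within 1.5 times of 543 with RLE factors (523), plain sums (454) and multimapping genes left out (501). These settings kept 505, 417 and 501 of the 543 calls. Scaling to all reads gave 791 calls, of which 6.19% were higher, against 64.6%. Only 241 of the 543 calls were among those 791, so most of the called genes changed with that scaling. Scaling to all reads turned the sign of FOXA1 (-0.10), HSP90AB1 (-0.20), HSPD1 (-0.10), KPNB1 (-0.27), MANF (-0.14) and RGS2 (-0.038), and ended 37 other calls of the 128 named genes. In all reads the count ranged from 3696 to 4119, and from 3008 to 3772 with each library left out. In labelled share it was 122 when T>C and other reads were each scaled to their own bulk, which also turned HSP90AB1 to 0.11. It was 280 with limma, 1157 with all 12 libraries, 336 with plain sums, 491 with at least 100 reads, and 52 to 452 with each library left out. The cause of these moves was not tested. The library difference in T>C reads was -3.997 to -4.34 percentage points over the other settings and -4.13 to -4.33 with each library left out (exact p = 0.2, the smallest possible there), and that in converted T positions -0.463 to -0.512 and -0.486 to -0.501.

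Replicate numbers were not shown to pair the libraries: deviations of same-numbered PladB and WX-02-23 libraries correlated at 0.0119 to 0.0181 across genes in T>C reads and 0.0158 to 0.0263 in all reads, although each library correlated best with its own number. With the replicate block the counts were 742 in T>C reads, 3935 in all reads and 211 in labelled share, and the exact sign-flip p of the library differences (-4.20 and -0.493) was 0.25, the smallest possible.

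About 826780 T>C reads in the shallowest library limit what can be said of genes at 0 there, and 3 libraries a group cannot bring an exact p under 0.1.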

Other observations

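Noncoding intervals were outside the comparisons. In them 23.2% ± 0.649 of reads were T>C reads in WX-02-23, 20.0% ± 1.64 in PladB and 24.1% ± 0.445 in DMSO (SD, n = 3), a PladB to WX-02-23 ratio of 0.863, against 0.564 on coding genes. A two-sided exact permutation test gave p = 0.1 for the difference of -3.17 percentage points, and no smaller p is possible at this size.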
